A study of Mus musculus with 14 samples.

Results

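The regions described here carried H2A.Z in mouse small intestinal epithelium at embryonic stage E12.5 and were listed at no later stage. H2A.Z is a variant of the core histone H2A. It is exchanged into nucleosomes by the SRCAP and p400/TIP60 remodelling complexes, and it sits beside the start sites of genes, at enhancers and at developmental genes that are held ready for transcription. At E12.5 the gut tube is lined by an unfolded, dividing endodermal epithelium. By E14.5 villi begin to form, and in the adult the tissue is split into crypts with stem cells and villi with enterocytes. Peaks of all libraries that overlapped or touched were joined into 45028 regions, of which 43299 lay on chromosomes 1 to 19 and were under 3000 bp wide. Members were those regions with a peak in both E12.5 libraries and in none of the other 6, and 1977 regions met this rule. They were thus chosen by the presence or absence of H2A.Z peaks in these same lists, so their H2A.Z values describe the set and no test was made on them.

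The E12.5 and E14.5 libraries came from epithelial cells sorted as EpCAM+ CD31- CD45- DAPI- from dissected small intestine, and the embryos' sex is not given in the labels used here. The adult cells were Lgr5+ intestinal stem cells (ISC), sorted for high EGFP, and enterocytes, sorted as EpCAM+ CD31- CD45- DAPI-, both from male mice at postnatal day 60 that carry the Lgr5EGFP-Cre-ERT allele. All animals were of a mixed C57BL/6 CD1 background, and each stage has 2 H2A.Z libraries. The series text calls these biological duplicates without saying whether animals were pooled. Regions are given by their mm9 coordinates only, since gene annotations of that build were not used here. For the same reason the cell types were not checked against the loci of their marker genes.

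The E12.5 libraries held 35261834 tags in replicate 1 and 38511645 in replicate 2 and gave 26059 and 22177 peaks. The other 6 libraries held 27835048 to 41274126 tags and gave 6136 to 32131 peaks. E14.5 replicate 2 and enterocyte replicate 1 stood apart, with 6136 and 14256 peaks of median width 238 and 388 bp, against 731 to 921 bp in the other libraries. Their fragment sizes as estimated by the peak caller were 71 and 67 bp, near the tag length of 68 bp. The number of members was 1997 without both of them, against 1977 with them.

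The E12.5-only rule was met by 4.57% of the 43299 regions. The same rule gave 6 regions for E14.5 (0.0139%), 3063 for ISC (7.07%) and 88 for enterocytes (0.203%). As a share of the regions listed in both libraries of a stage, this was 10.9% of 18207 at E12.5 (95% Wilson interval 10.4 to 11.3), 0.121% of 4947 at E14.5 (0.0556 to 0.264), 13.4% of 22805 in ISC (13.0 to 13.9) and 0.824% of 10677 in enterocytes (0.670 to 1.01). These intervals cover counting error only. The order of the counts follows the length of the shorter list of each stage, which was 22177 peaks at E12.5, 6136 at E14.5, 26925 in ISC and 14256 in enterocytes, and a stage with longer lists cannot be told apart here from a stage with more regions of its own. The count rests on both E12.5 lists: without replicate 1 it was 3658 and without replicate 2 it was 5210.

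E12.5-only regions were weakly enriched. Fold enrichment is the ratio of ChIP to local background from the input as the authors' caller wrote it, and the highest value in the region was taken for each library. The median over members was 3.11 in replicate 1 and 2.93 in replicate 2, with a mean of 3.02 ± 0.124 (SD, n = 2). In the other 16230 regions that both E12.5 libraries listed, the medians were 4.06 and 3.44. Among members the fold ran from 2.26 to 6.19 in replicate 1 and from 2.20 to 4.86 in replicate 2. It was at least 3 in both libraries in 553 members (28.0%) and at least 4 in both in 8 (0.405%).

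**Figure D1:**
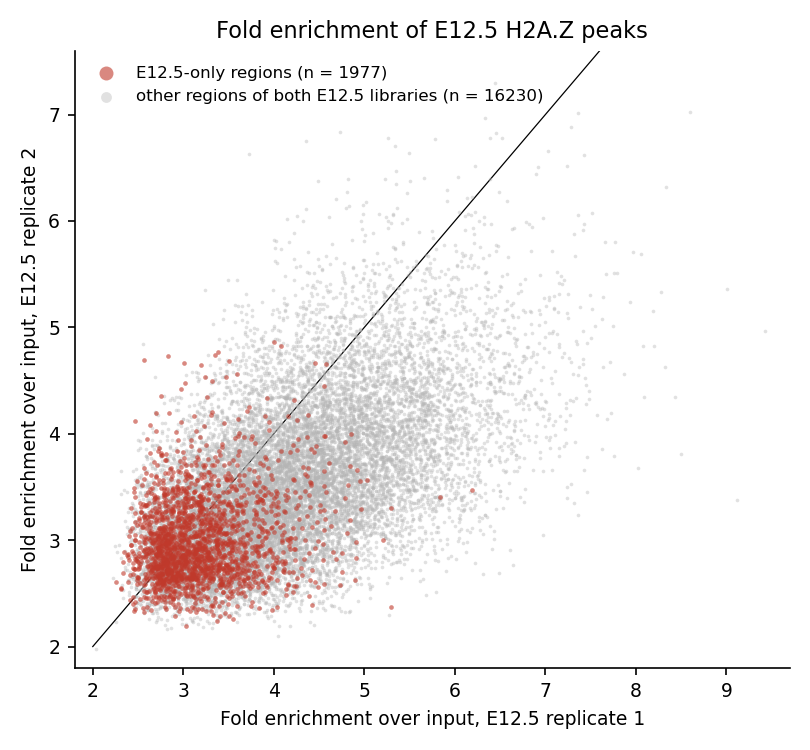
Fold enrichment over input in E12.5 replicate 1 (x axis) and replicate 2 (y axis), 1 point per region, with the 1977 E12.5-only regions in red and the other 16230 regions of both E12.5 libraries in grey; the line marks equal values. The E12.5-only regions fill the lower left, with medians of 3.11 and 2.93 against 4.06 and 3.44.

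The median −log10 q of members was 2.99 in replicate 1 and 2.35 in replicate 2, against 7.67 and 5.21 in the other E12.5 regions. The lowest values among members were 1.02 in each library, near the 1.01 and 1.02 at which the lists of replicates 1 and 2 end, and 1056 members (53.4%) reached 2 in both libraries. A value of at least 5 in both was reached by 71 members (3.59%). The pileup, the coverage by extended fragments, had a median of 17.5 and 16.6 in members and of 26.3 and 24.7 in the other E12.5 regions. Ranked by p within its own list, the median member stood 72.2% of the way down the list of replicate 1 and 76.9% down that of replicate 2. The other E12.5 regions stood at 33.3% and 39.2%. Of the members, 304 (15.4%) were in the stronger 50% of the peaks of replicate 1 and 233 (11.8%) in that of replicate 2.

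The regions were also narrow. Peaks of replicate 1 covered a median of 469 bp of a member and those of replicate 2 covered 400 bp, with a mean of 434.5 ± 48.8 bp (SD, n = 2). The other E12.5 regions had medians of 1040.5 and 879 bp in the same libraries. The joined width of members had a median of 561 bp and ranged from 230 to 2567 bp. It was under 500 bp in 751 members (38.0%), 500 bp or more but under 1000 bp in 984 (49.8%) and at least 1000 bp in 242 (12.2%). A smaller fragment size allows a narrower peak, and the narrowest peaks of members, 216 and 204 bp, equalled the fragment sizes of these libraries.

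**Figure D2:**
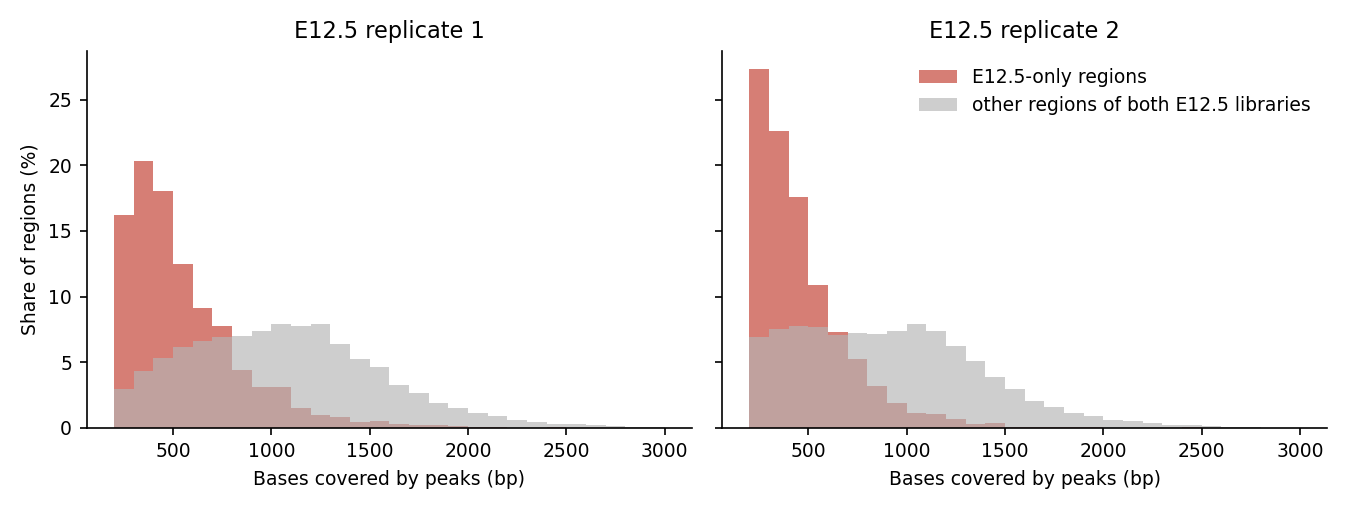
Share of regions (y axis, %) by the bases that peaks of E12.5 replicate 1 (left) and replicate 2 (right) covered in the region (x axis, bp, in steps of 100 bp), for E12.5-only regions in red and other regions of both E12.5 libraries in grey. The E12.5-only regions pile up at the narrow end, with medians of 469 and 400 bp against 1040.5 and 879 bp.

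A member was made by joining peaks of the 2 E12.5 libraries that overlapped or touched, so the meeting of these peaks follows from the rule and says nothing about how well the replicates agree. How much they shared is given as a description. At least 50% of the narrower peak was shared in 1887 of the 1977 members (95.4%). The median overlap was 309 bp, or 61.5% of the joined width, and the middles of the peaks were a median of 72 bp apart. All but 4 members held a single peak of each library. Across members the fold of the libraries had a Spearman rho of 0.14 and a Pearson r of 0.19, the −log10 q had 0.37 and 0.42, and the pileup had 0.59 and 0.62. The same coefficients were 0.57 and 0.57, 0.77 and 0.76, and 0.85 and 0.84 over the other 16230 regions. These are descriptions over regions of the same pair of libraries, and the members span less of the scale, with 1.22 against 2.54 fold units between the percentiles 10 and 90 of replicate 1. Replicate 1 had the higher fold in 1239 members (62.7%) and the wider cover in 1247 (63.1%). In the other 16230 regions the medians were also higher in replicate 1, at 4.06 against 3.44 in fold and 1040.5 against 879 bp in cover.

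Most regions with H2A.Z at E12.5 were listed at other stages as well. Of the 18207 regions of both E12.5 libraries, 3751 (20.6%) had a peak in all 6 other libraries and 5226 (28.7%) in 5 of them. In 4619 of these 5226 the missing library was E14.5 replicate 2. The members, listed in 0 other libraries, outnumbered the 1264 regions (6.94%) listed in a single other library and the 1397 (7.67%) listed in 2.

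The 1264 regions with a peak in a single other library lie just outside the rule. In 731 of them (57.8%) that library was E14.5 replicate 1, in 323 (25.6%) ISC replicate 2 and in 154 (12.2%) ISC replicate 1. Enterocyte replicate 2 accounted for 36, E14.5 replicate 2 for 20 and enterocyte replicate 1 for 0. A region listed in both libraries of another stage is not in this group. E14.5 replicate 2 listed 6136 peaks against 17288 in E14.5 replicate 1, while the ISC libraries listed 26925 and 32131. The split therefore does not show which stage is closest to E12.5. Members had a median fold of 3.11 and 2.93 at E12.5, and the regions kept out by E14.5 replicate 1 had 3.35 and 3.12. In E14.5 replicate 1 itself those regions had a median fold of 2.97 and a median −log10 q of 2.21.

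**Figure D3:**
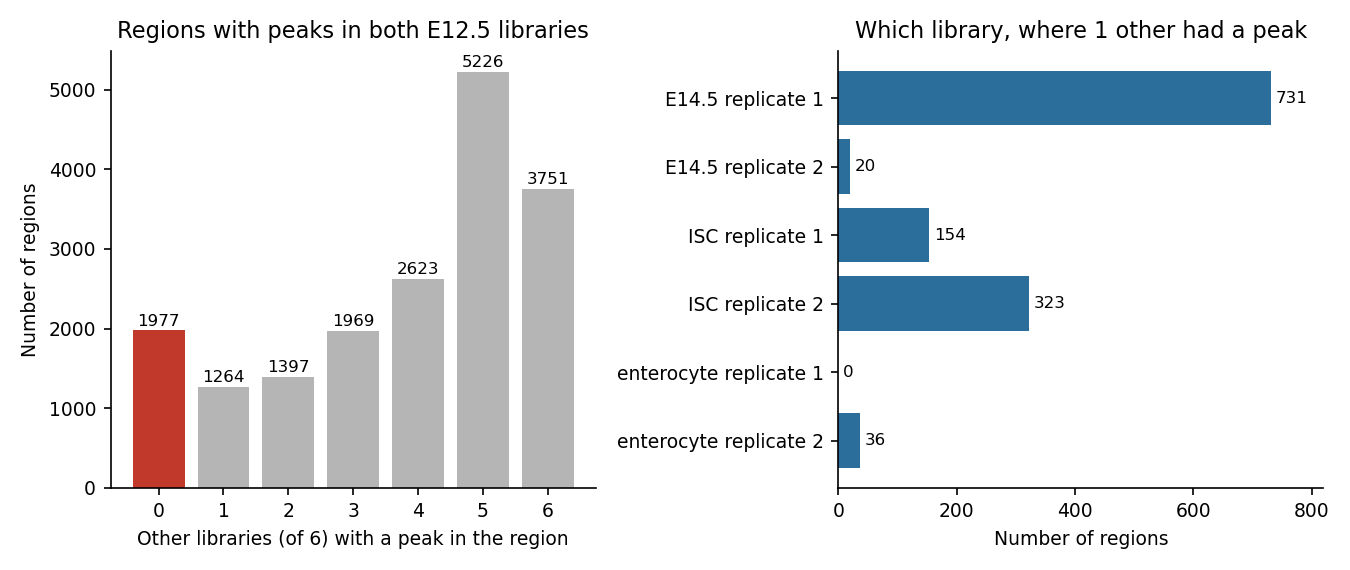
Left, number of regions with peaks in both E12.5 libraries (y axis) by how many of the other 6 libraries also had a peak there (x axis), with the E12.5-only regions in red. Right, for the 1264 regions with a peak in a single other library, the number of regions (x axis) for each such library. E14.5 replicate 1 accounts for 731 of them.

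How often an E12.5 region was E12.5-only varied with its strength at E12.5. The 18207 regions were put in order of the lower −log10 q of the 2 libraries and divided into 10 groups of equal size. In the weakest group, 699 of 1821 regions were E12.5-only (38.4%, 95% Wilson interval 36.2 to 40.6). The share was 5.93% (4.94 to 7.11) in group 5, and in the strongest group it was 0 of 1821 (0 to 0.211). Ordered by the lower fold, the highest share was 28.0% (26.0 to 30.1) in group 2, and the strongest group held 3 E12.5-only regions (0.165%, 0.0560 to 0.483). ISC-only regions among the 22805 regions of both ISC libraries showed the same course, with 44.3% (42.2 to 46.3) in the weakest and 0% (0 to 0.168) in the strongest group by −log10 q. Whether the other libraries held H2A.Z just under the cutoff in these regions cannot be seen in peak lists.

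**Figure D4:**
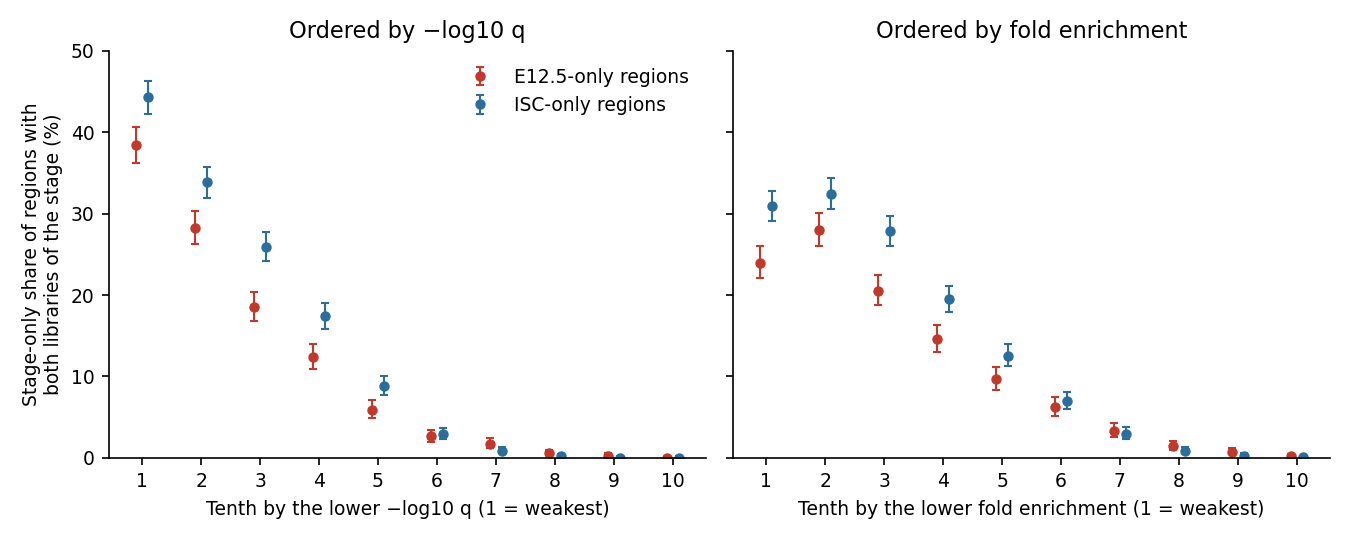
Stage-only share (y axis, %) of the regions listed in both libraries of a stage, in 10 equal groups from the weakest (1) to the strongest (10) by the lower −log10 q (left) or the lower fold enrichment (right) of the 2 libraries, for E12.5 in red and ISC in blue; bars are 95% Wilson intervals. By −log10 q the E12.5 share is 38.4% in group 1 and 0% in group 10.

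Few members ranked high in their own lists. Among the 6136 strongest peaks by p, the length of the shortest list, were 16 members in replicate 1 (0.809%) and 35 in replicate 2 (1.77%), and 2 were among them in both. With every list reduced to its 6136 strongest peaks, 260 regions were E12.5-only (2.12% of 12254), 150 E14.5-only, 113 ISC-only and 290 enterocyte-only. Of the 260, 258 overlapped a peak of another stage in the full lists, so that they were regions ranked higher at E12.5 rather than listed at E12.5 alone.

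The member with the highest lower fold was chr10:61057609-61058312. Its fold was 4.58 in replicate 1 and 4.65 in replicate 2, and its −log10 q 8.88 and 10.0. Replicate 2 covered 506 bp of it, all within the 704 bp of replicate 1. Next came chr8:86386177-86386936, where the fold reached 4.46 and 4.67. Both members were thus above the median of the other E12.5 regions in each library.

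The third, chr15:82798685-82799218, was 534 bp wide, and its fold was 4.56 and 4.45. At chr3:8685122-8685677 the fold was 4.22 and 4.32. That of chr8:66430554-66431283 was 4.38 and 4.18, and the nearest region of another stage was 251828 bp away. The fold values of both libraries were close in these regions. They were chosen for a high lower fold, which requires a high value in each library. The closeness therefore says nothing about how well the replicates agree.

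The region chr4:118716799-118717354 had 4.15 and 4.17 and belonged to a stretch of 4 members described with the other stretches. At chr3:121746834-121747621 the fold was 4.26 and 4.13, and the next member lay 8768 bp away. The members chr3:69830413-69830816, at 4.08 and 4.83, and chr9:36947286-36947682, at 4.00 and 4.86, were stronger in replicate 2. By contrast chr12:107205898-107206614 was stronger in replicate 1, with 4.85 in replicate 1 and 4.00 in replicate 2, and had a region of another stage 4133 bp away. All 10 of these regions were 397 to 788 bp wide, inside the 349 to 1047 bp between the percentiles 10 and 90 of all members.

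The widest member, chr15:102888955-102891521, spanned 2567 bp and had fold values of 3.16 and 2.98. The members chr11:45869405-45871924, of 2520 bp, and chr7:148210667-148212876, of 2210 bp, had 3.85 and 3.38 and 3.50 and 3.63. None of these 3 was among the 10 members of highest fold. Just outside the limit, a single autosomal region met the rest of the rule. This was chr11:86684140-86687272, 3133 bp wide and enriched 2.94 and 2.98-fold. The narrowest members were chr1:93651524-93651753 with 230 bp, chr17:25633887-25634121 with 235 bp and chr1:137145213-137145452 with 240 bp. Their fold was 2.76 and 2.60, 3.31 and 3.26, and 2.35 and 2.89 in replicates 1 and 2. The highest pileup of a member in replicate 1 was 32.0, at chr6:125031573-125031955, where replicate 2 had 27.3. In replicate 2 it was 35.4, at chr2:127366494-127367458, where replicate 1 had 23.6.

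Most E12.5-only regions lay more than 5 kb from H2A.Z of the other stages. The gap to the nearest region of any other library had a median of 15883 bp, with 25% of members under 6036 bp and 25% above 46578 bp. It was at most 5 kb in 427 members (21.6%, 95% Wilson interval 19.8 to 23.5) and at most 1 kb in 53 (2.68%, 2.06 to 3.49). For the other regions of both E12.5 libraries, measured to the nearest such region other than themselves, the median gap was 12261.5 bp, and 3949 of them (24.3%) lay within 5 kb and 1.44% (1.27 to 1.64) within 1 kb. Within 100 kb lay 87.9% (86.4 to 89.3) of members and 95.2% (94.8 to 95.5) of the other E12.5 regions. Neighbouring regions are not independent, so these shares are descriptions.

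By library, a peak lay within 5 kb of 179 members in E14.5 replicate 1 (9.05%), 42 in E14.5 replicate 2 (2.12%), 300 in ISC replicate 1 (15.2%), 332 in ISC replicate 2 (16.8%), 92 in enterocyte replicate 1 (4.65%) and 191 in enterocyte replicate 2 (9.66%). The order of these shares is that of the number of peaks in the 6 lists. Of the 427 nearest regions within 5 kb, 237 (55.5%) also had a peak of an E12.5 library and 25 (5.85%, 4.00 to 8.50) were listed in all 8 libraries. Among all 38113 regions with a peak of another stage, 3999 (10.5%) were listed in all 8. These 38113 include the 16230 other regions of both E12.5 libraries. Their share with a peak of at least 1 E12.5 library was not counted, so the 55.5% has no base to be read against.

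The most remote member was chr14:108994640-108995255. The nearest region of another stage was 1880051 bp away, and its fold was 2.77 and 2.95. At chr1:144005630-144006271 this gap was 1447519 bp and the fold 3.48 and 2.96. At chr3:48389765-48390387 it was 1169584 bp, with 3.53 and 2.66. In replicate 1, the fold of the members on chromosomes 1 and 3 lay above the 3.47 that 75% of members stayed under.

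Members were spread along the chromosomes, and a minority lay close together. The gap to the next member had a median of 250240 bp and a lowest value of 829 bp. It was at most 50 kb in 19.7% of members (95% Wilson interval 18.0 to 21.5). Joined at up to 50 kb, 1588 members stood alone, 154 stretches held 2 members, 20 held 3, 4 held 4 and 1 held 5. The share within 50 kb was higher in the alternatives without an E12.5 library, which gave more regions. It was 38.9% without replicate 2 (5210 regions) and 28.6% without replicate 1 (3658 regions). With lists of equal length it was 0.769% (260 regions). The share did not always fall with the number of regions. It was 1.52% with −log10 q of at least 10 in every list (132 regions) and 5.63% with at least 5 at E12.5 (71 regions). The share was not counted for a comparison set of regions, and whether members lie closer together than other regions was not tested.

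The stretch with 5 members spanned 85.1 kb of chromosome 12, from 110662964 to 110748083. Its members had a fold of 3.43, 3.64, 3.97, 3.25 and 3.70 in replicate 1, along the chromosome, and of 3.25, 2.51, 3.61, 2.74 and 2.89 in replicate 2. All 5 were stronger in replicate 1. Another 3 regions inside the stretch had a peak of another stage, 1 in E14.5 replicate 1 and 2 in both ISC libraries, and enterocytes had none.

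On chromosome 4 from 118698118 to 118746043, 4 members were the only H2A.Z regions of any library over 47.9 kb. Those at its ends were broad, at 1582 and 1935 bp, with a fold of 2.92 and 2.76 in the first and of 2.82 and 2.75 in the last. The one at 118716799 to 118717354 was narrow and strong, as given above, and the remaining member, 309 bp wide, had 2.84 and 2.65. The nearest region of another stage lay 32104 bp beyond the stretch.

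A stretch of 80.7 kb on chromosome 2, from 17774534 to 17855221, also held no region of another stage. Its 4 members had a fold of 2.93, 2.72, 2.58 and 2.99 in replicate 1 and of 2.86, 2.59, 3.33 and 2.73 in replicate 2, and 2 more regions had a peak of replicate 1 alone. Members of the remaining stretches were mixed with regions of other stages. Chromosome 12 from 12808876 to 12905959 had 4 members and 5 regions with a peak of another stage, and the members' fold was 2.69 to 3.24 in replicate 1 and 2.58 to 3.71 in replicate 2. Chromosome 7 from 137144142 to 137273388 had 4 members and 6 such regions, with a members' fold of 2.43 to 3.28 in replicate 1 and 2.68 to 3.52 in replicate 2. In none of the 5 stretches did E14.5 replicate 2 or either enterocyte library have a peak. These were the stretches with the most members, chosen for that. Enterocyte replicate 1 had a peak just before the stretch that starts at 12808876. Over all members, a peak lay within 50 kb of 22.3% in E14.5 replicate 2, 39.4% in enterocyte replicate 1 and 54.6% in enterocyte replicate 2.

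**Figure D5:**
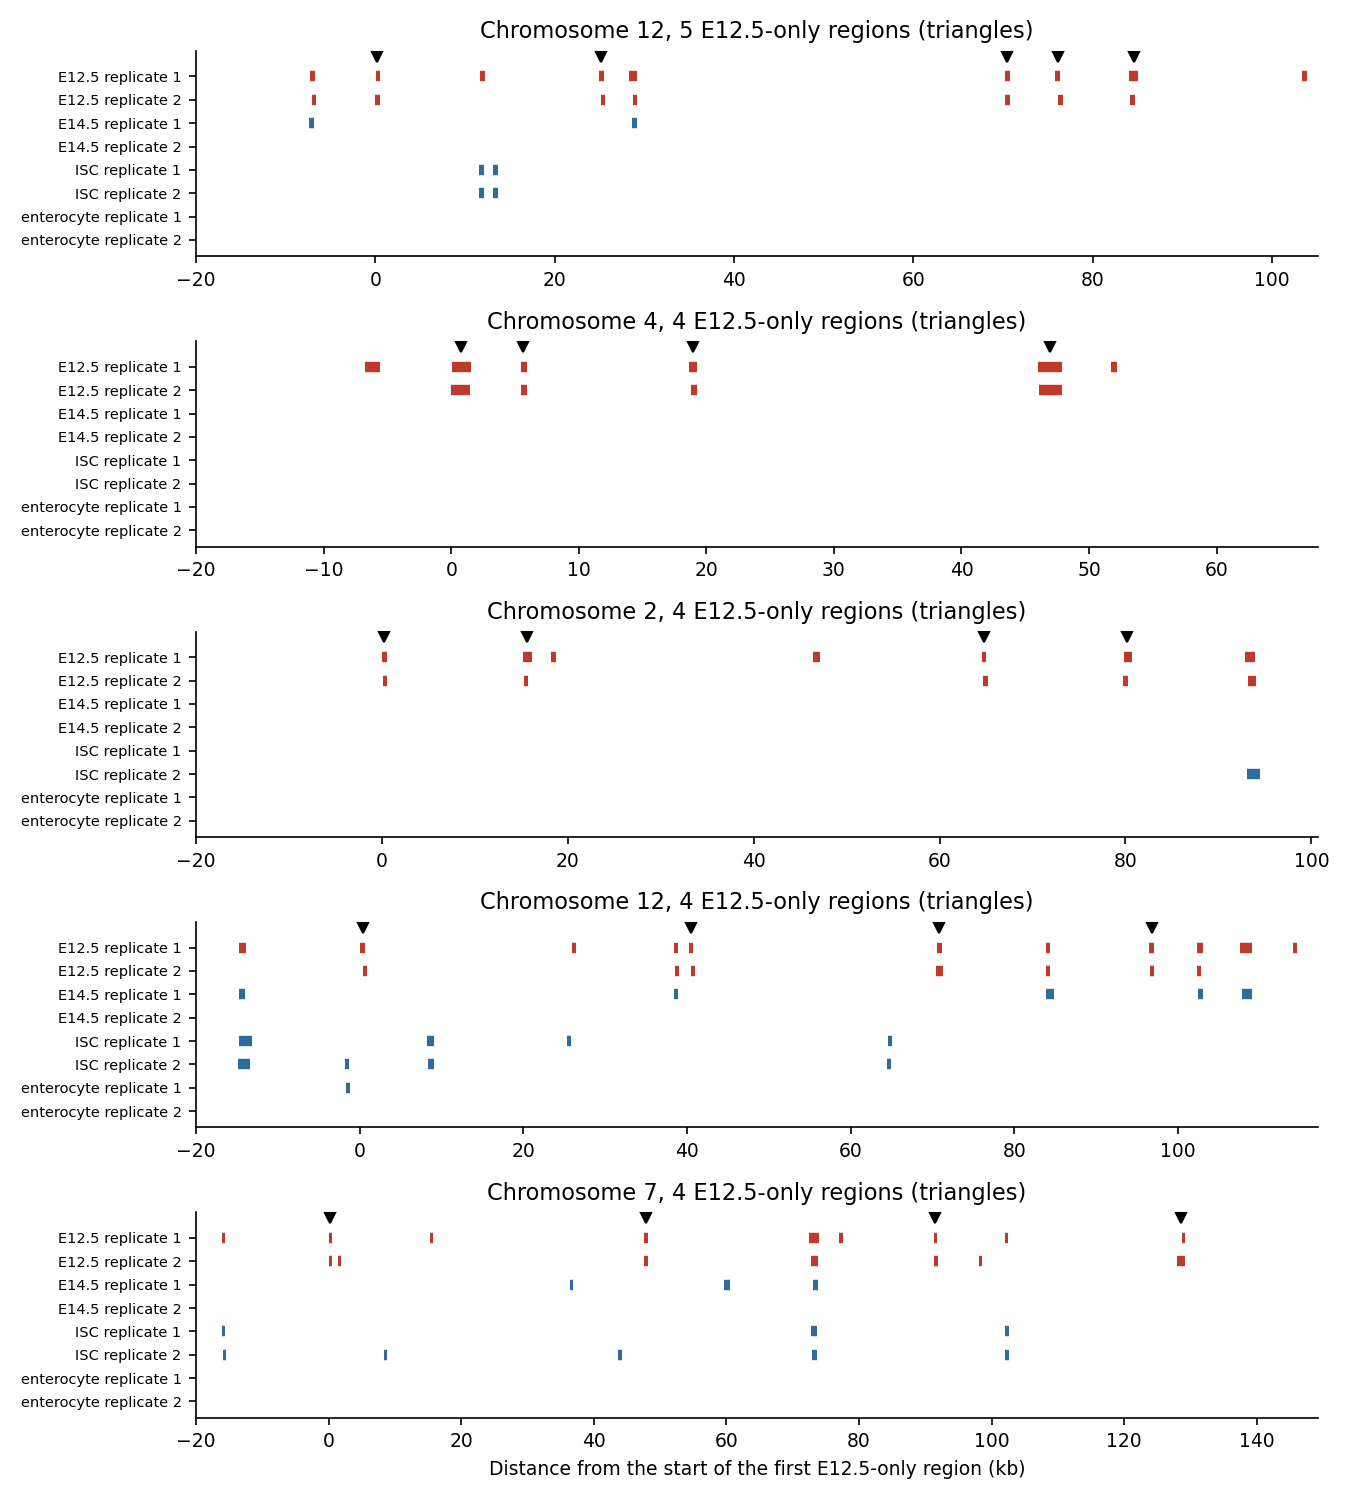
Peaks of the 8 libraries (rows; E12.5 in red, other stages in blue) in the 5 stretches with the most E12.5-only regions and 20 kb on either side, by distance from the start of the first E12.5-only region (x axis, kb). Triangles mark E12.5-only regions, and peaks under 0.5 kb are drawn at 0.5 kb; the stretches on chromosomes 4 and 2 hold no peak of another stage between their first and last E12.5-only regions.

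The share of E12.5 regions that were E12.5-only varied between autosomes. It ranged from 8.39% on chromosome 17 (68 of 811 regions, 95% Wilson interval 6.67 to 10.5) to 14.3% on chromosome 1 (169 of 1185, 12.4 to 16.4), beside 10.9% over all. Chromosome 15 followed with 13.3% (104 of 780, 11.1 to 15.9) and chromosome 12 with 12.9% (92 of 714, 10.6 to 15.5). The intervals of chromosomes 1 and 15 lay above the value over all autosomes and that of chromosome 17 lay below it. With 19 chromosomes looked at and no test made, this is given as a description.

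Sets of regions listed in both libraries of given stages and in no other library were also compared. Among these sets, E12.5-only regions had the lowest median fold and the least cover at E12.5. Their median fold was 3.11 and 2.93 in replicates 1 and 2, and their median cover 469 and 400 bp. In the 794 regions of both E12.5 and both ISC libraries alone (1.83% of the 43299), the E12.5 fold was 3.29 and 2.96 and the cover 596.5 and 445 bp. The median fold of these regions in ISC was 2.81 and 3.05. In the 87 regions of the 4 embryonic libraries alone (0.201%), the E12.5 fold was 3.59 and 3.36 and the cover 690 and 671 bp. The 3751 regions of all 8 libraries had 4.88 and 4.03 and 1284 and 1173 bp. The order of the medians among these sets was the same in each replicate, and no test was made, since presence in the lists chose the sets. The regions with a single other library were not among the sets. Where that library was ISC replicate 1, the E12.5 fold was 3.25 and 2.87, the latter under that of members. Where it was enterocyte replicate 2, the fold was 3.07 and 3.05, the former under that of members. In the other groups that held regions, both medians were above those of members. ISC-only regions had a median fold of 2.71 and 2.97 and a cover of 451 and 527 bp in the ISC libraries, which is near what E12.5-only regions had at E12.5.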

How the data were processed

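Each of the 8 H2A.Z libraries has a list of broad peaks, called library by library against input DNA. The caller was MACS 2.1.0.20140616 in its broad mode (q cutoff 0.05, model fold from 10 to 30), per the file headers. The lists go down to a −log10 q of 1.00 to 1.06, past that cutoff, and a cutoff for joining broad regions is not given in the sources used here. Both ISC libraries shared 1 input, as did both enterocyte libraries. Alignment tools and build were Bowtie 1.1.2, SAMtools 1.2 and mm9, beside bcl2fastq 1.8.4, per the submitters' processing notes. The deposited pileup is a coverage signal, the deposited fold enrichment is a ratio to local background, and the −log10 p and −log10 q were deposited as MACS wrote them. They belong to single peaks, and no scaling between libraries was applied here. Values of different lists that are set side by side, as for replicates 1 and 2, are therefore descriptions. The 6 input samples entered through peak calling alone.

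Peaks were joined into regions with Python 3.11.15, pandas 2.3.3 and NumPy 2.4.6, and Wilson intervals come from statsmodels 0.14.6. Joining and gap measurement were tested on simulated peaks. The named regions are the 10 with the highest lower fold, the 3 widest, the 3 narrowest, that of highest pileup per library and the 5 stretches with most members. The most remote members, the region over the width limit, and the sets compared by sharing were added later. The members, comparisons and alternatives were chosen with earlier results of these data known. Chance tests, genes and sequences were not used, since the lists chose the members and the tables at hand are of another build.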

Additional observations from a re-analysis of the deposited data

How the results depend on the processing

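Of 18 alternatives, 13 left the number of E12.5-only regions within 1.5 times 1977. With −log10 q of at least 2 in every list, the E12.5-only share of E12.5 regions was 9.39%, the median fold 3.23, and 15.8% and 18.1% lay near another member (within 50 kb) and near another stage (within 5 kb). With at least 10, which left enterocyte replicate 1 without peaks, the count was 132, the share 8.85%, the fold 5.05, the cover 1067 bp and the shares of near regions 1.52% and 4.55%. With at least 5 at E12.5 and all other peaks kept, they were 71, 0.867%, 3.91, 556.5 bp, 5.63% and 19.7%. With lists of equal length they were 260, 5.98%, 4.49, 955.8 bp, 0.769% and 5.38%. Cover of at least 50% gave a share of 16.4% and 501.8 bp, and 19.6% lay near another stage when members within 1 kb of a peak of the other 6 libraries were left out. The cutoffs of 2 and 10 remove weak peaks of every list. That of 5 at E12.5 removes those of the E12.5 lists alone, and leaving out a library drops a condition of the rule. The highest lower −log10 q of a member was 8.88, so none of the 132 regions at the cutoff of 10 was among the 1977. They met the rule only once weaker peaks of other stages were removed. At the cutoff of 2 the count was 1475, against 1056 members that reached 2 in both E12.5 libraries. Without each library in turn, the count was 1977 to 5210, the share 10.9 to 21.3%, the cover 355 to 466.5 bp, the fold 2.89 to 3.07, and the shares near another member and another stage 19.7 to 38.9% and 18.96 to 23.95%. Without E14.5 replicate 1 the count was 2706. No paired analysis was possible because the results come from no test. Peak lists do not show signal under the cutoff, so absence from a list is not absence of H2A.Z.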

Other observations

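On the X chromosome, which the rule leaves out, 32 of the 479 regions of both E12.5 libraries were listed at no other stage (6.68%, 95% Wilson interval 4.77 to 9.28, with no limit on width). Their median fold was 3.25 in replicate 1 and 3.13 in replicate 2, and their median width was 615.5 bp.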
